A study of Mus musculus with 5 samples.

Results

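Gap junctions and pannexin channels were followed in mouse retina through 8 genes: the connexins Gjd2, Gjc1, Gja10, Gja1, Gja4 and Gja5, and the pannexins Panx1 and Panx2. The genes were chosen by name, and their measurements are all probe sets (groups of short array oligonucleotides that report 1 transcript) annotated with exactly 1 of these symbols. That gave 15 probe sets of the 45101 on the array and 8 of 18193 genes, and for 5 of the 8 genes a single probe set is the only measurement. Where a gene had several probe sets, the one of highest mean signal stood for the gene.

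RNA came from 5 pools of whole retinas, each hybridized to 1 whole-genome Affymetrix mouse array. Of the 3 diabetic pools, replicates 1 and 2 each combined 4 retinas from 2 mice 5 weeks after diabetes was induced with streptozotocin, which destroys the insulin-producing beta cells. The third held 6 retinas from 3 mice with experimentally induced diabetes of 3 to 4 weeks. The 2 control pools each combined 4 retinas from 2 untreated, age-matched mice whose blood glucose was normal. The sources name no strain, sex or genotype, and diabetic replicate 3 differs from the other diabetic pools both in duration and in the number of mice.

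Connexins are membrane proteins that assemble into hexameric channels, and a channel docked to its partner in a neighbouring cell forms a gap junction through which ions and small molecules pass. In the retina these junctions couple photoreceptors to each other, horizontal cells to each other, AII amacrine cells to each other and to ON cone bipolar cells, astrocytes to each other, and the cells of the vessel wall. Pannexins have a similar membrane topology but mostly form unpaired channels that release ATP from the cell. In RNA from whole retina, fewer cells of a type and less RNA per cell cannot be told apart.

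Depth in the sense of read counts does not apply to arrays, and the number of arrays limits the precision. Values below are either signals on the linear scale as deposited or levels on the scale log2(signal + 120.6), and differences are diabetic minus control on the log2 scale. The retinal label was borne out by 5 rod marker genes, whose summed signal was between 458690 and 532620 in the 5 pools. Diabetic replicate 2 stood apart in RNA measures, with a 3' to 5' beta-actin signal ratio of 4.32 against 2.01 to 2.71 in the other arrays, and a small-subunit ribosomal RNA signal at the 3' end of 11744 against 2447 to 3341. The skeletal muscle list (12 genes measured, 7 tested) was high in diabetic replicate 3 and control replicate 2, with summed signals of 96039 and 61943 against 5468 to 6524 in the other pools.

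Of the 8 genes, 5 passed the filter that kept the upper 60% of genes by mean level (above 9.70 on the log2 scale, a signal of about 713): Gjd2, Gjc1, Gja1, Panx1 and Panx2. Gja4, Gja5 and Gja10 lay below it, so their values are given without a test. None of the 5 tested genes passed an adjusted p of 0.05 (limma, Benjamini-Hochberg adjusted p = 0.999 for each), and none had an unadjusted p under 0.05. Over all 10916 tested genes 0, or 0%, passed the adjusted threshold and 370, or 3.39%, had an unadjusted p under 0.05. Among the 5 tested genes 3 had a positive and 2 a negative difference, with a median of 0.00045, and among all 8 there were 3 positive and 5 negative with a median of -0.08. Over all tested genes the median difference was 0.0060, with 51.9% positive.

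**Figure D1:**
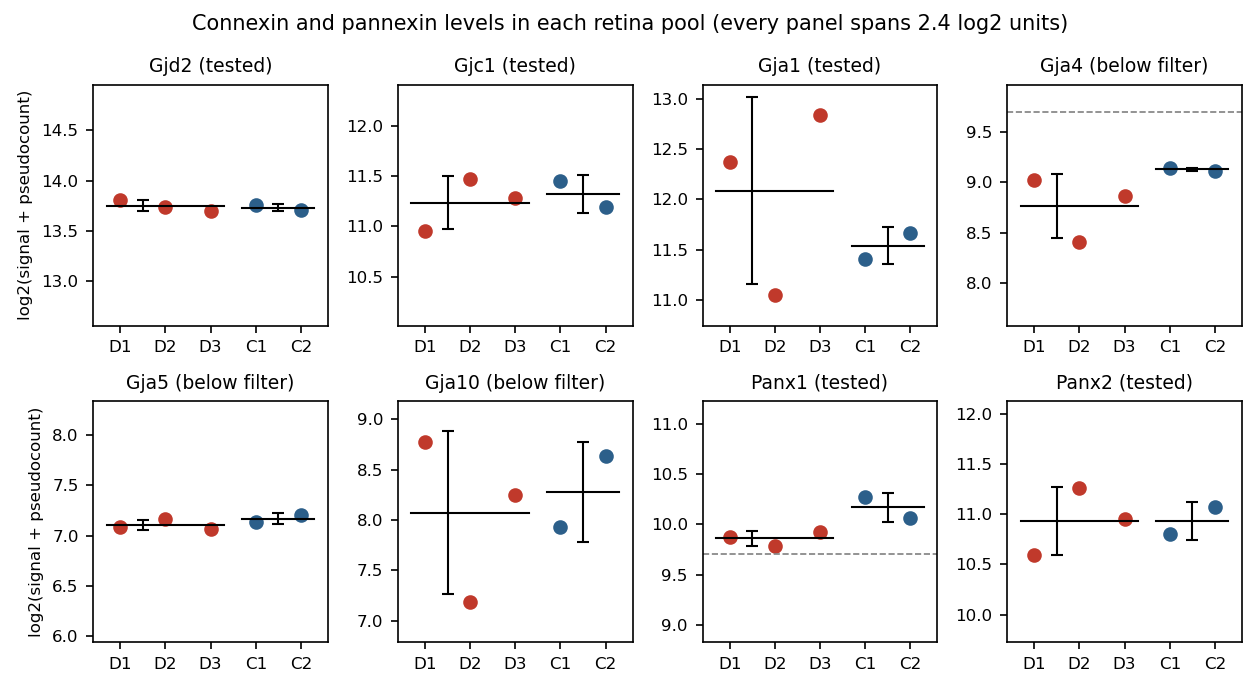
Level of each connexin and pannexin gene in every pool, on the log2(signal + 120.6) scale, with diabetic pools D1 to D3 in red, control pools C1 and C2 in blue, the group mean as a horizontal line, the SD as an error bar and the filter level of 9.70 dashed where it lies in the panel. Each panel spans the same number of log2 units, so the narrow spread of Gjd2 (range 0.11) and the wide spread of Gja1 (range 1.79) and Gja10 (range 1.59) can be compared.

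Gjd2 and Gja1 mark the narrow and the wide end of variation among the tested genes of the family, and the sequences before their starts are shown for that reason. RefSeq's table for GRCm38.p6 held an entry for 6 of the 8 genes, and none for Gjc1 and Panx2. The 250 bases before the transcript start of Gjd2 lie at chr2:114013620-114013869 on the minus strand. The start that RefSeq's table uses for Gjd2 lies inside the annotated gene, which runs from 114009601 to 114014378, and positions in its window are counted from that inner start. The 250 bases before the start of Gja1, which is also where its annotated gene begins, lie at chr10:56377050-56377299 on the plus strand. Both run 5' to 3' in the direction of the gene, with capitals for matches to 4 motifs searched on both strands: TGAGTCA (the AP-1 site), TGACGTCA (the cAMP response element), GGGCGG (the GC box of Sp1) and TATAAA (the TATA box).
Gjd2: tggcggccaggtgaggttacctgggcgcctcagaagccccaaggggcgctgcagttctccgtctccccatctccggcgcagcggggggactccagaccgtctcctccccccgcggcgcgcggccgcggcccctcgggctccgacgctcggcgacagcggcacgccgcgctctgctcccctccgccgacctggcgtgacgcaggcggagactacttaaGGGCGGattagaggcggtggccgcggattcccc
Gja1: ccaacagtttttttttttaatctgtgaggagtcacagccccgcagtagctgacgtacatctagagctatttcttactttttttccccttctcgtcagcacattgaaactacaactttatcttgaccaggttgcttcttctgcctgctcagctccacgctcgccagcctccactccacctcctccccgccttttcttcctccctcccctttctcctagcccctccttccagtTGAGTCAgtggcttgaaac
The Gja1 window had 50.0% G and C and held 1 AP-1 match, 19 to 13 bases before the start. The Gjd2 window had 74.0% G and C and held 1 GC box match, 33 to 28 bases before the start. Of all 32851 windows of this length in the table, 4.46% held TGAGTCA, 1.55% TGACGTCA, 32.7% GGGCGG and 12.4% TATAAA on either strand. Gja4 and Gja5 each held 1 GC box match, and Panx1 held none of the 4 motifs. Gja10 held 1 TATA box match, on the strand opposite to the gene and 70 to 65 bases before the start. These matches describe the letters of the windows, and nothing in the arrays measured binding to them.

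Among the neuronal connexins, Gjd2 encodes connexin 36, the main connexin of electrical synapses between retinal neurons, in photoreceptors, AII amacrine cells and several ganglion cell types. Its brighter probe set, 1435297_at, had signals of 14229, 13499 and 13203 in diabetic replicates 1 to 3 and of 13717 and 13225 in control replicates 1 and 2. The groups overlapped, and the highest pool was only 1.08 times the lowest. The level was 13.75 ± 0.05 (SD, n = 3) in the diabetic pools against 13.73 ± 0.04 (SD, n = 2) in the controls, a difference of 0.02 (SE 0.08, 95% interval -0.16 to 0.20, limma adjusted p = 0.999). Its range over the 5 pools was 0.11, and 3.57% of all tested genes had a smaller one. The dimmer probe set of Gjd2, 1423019_at, had signals of 961.7, 745.6 and 957.8 in diabetic and of 951.6 and 873.9 in control pools. Diabetic replicate 2 was the lowest there, and the difference was -0.04 (SE 0.19). The sign of the Gjd2 difference thus depended on the probe set, and both intervals held 0. With all probe sets averaged it was -0.01.

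Gjc1 encodes connexin 45, which bipolar cells contribute to their junctions with AII amacrine cells and which vascular smooth muscle also makes. Signals were 1858, 2715 and 2374 in diabetic replicates 1 to 3 and 2686 and 2217 in control replicates 1 and 2. The groups overlapped, with diabetic replicate 1 lowest and diabetic replicate 2 highest. Means were 11.23 ± 0.26 (SD, n = 3) and 11.32 ± 0.19 (SD, n = 2), a difference of -0.09 (SE 0.17, 95% interval -0.49 to 0.31). Leaving out single pools turned its sign, to 0.05 when diabetic replicate 1 was omitted and to 0.04 when control replicate 1 was. The second probe set, 1447787_x_at, lay below the filter, with signals from 306.8 in diabetic replicate 3 to 636.7 in diabetic replicate 2 and a difference of -0.19. Suffix x marks probe sets whose oligonucleotides can also match other transcripts.

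Gja10 encodes connexin 57, the junction protein of horizontal cells, a cell type that forms a small share of the retina. Its single probe set was dim and spread widely, with signals of 318.1, 25.2 and 183.9 in diabetic and of 122.5 and 276.0 in control pools. The highest signal was 12.6 times the lowest, and both extremes were diabetic pools, so the groups overlapped. The difference was -0.21 on the log2 scale with a pseudocount of 120.6 and -0.68 with a pseudocount of 1, and its sign rested on single pools. It was 0.24 without diabetic replicate 2, the array that stood apart in RNA measures, 0.15 without control replicate 2 and 0.06 without both pools of high skeletal muscle signal. Of 7 horizontal cell markers 6 were tested, none passed an adjusted p of 0.05, 1 (Lhx1, lower in every diabetic pool) had an unadjusted p under 0.05, and 5 differences were positive, with a median of 0.17. Their summed signal was 48691 to 62025 in diabetic and 46802 to 50710 in control pools. It was highest in diabetic replicate 2, where Gja10 was lowest, and came there mostly from Septin4 (27694), Calb1 (18370) and Slc32a1 (11596). These and Onecut2 were highest in that pool, but Prox1 and the untested Onecut1 were lowest in it, as Gja10 was. Onecut1 had signals of 529.0, 309.2 and 485.6 in diabetic and of 414.4 and 676.4 in control pools. High marker sums in diabetic replicate 2 were not particular to horizontal cells. The amacrine cell list was highest there too, with a summed signal of 201620 against 179400 to 188500 in the other pools.

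Gja1 encodes connexin 43, the main connexin of astrocytes and Muller glia, which is also made by pericytes, endothelium, pigment epithelium, fibroblasts and melanocytes. It varied more between pools than any other tested gene of the family. Its brightest probe set, 1437992_x_at, had signals of 5179, 1992 and 7202 in diabetic replicates 1 to 3 and of 2602 and 3137 in control replicates 1 and 2. Diabetic replicates 1 and 3 lay above both controls and diabetic replicate 2 below both, so the groups overlapped. The level was 12.08 ± 0.93 (SD, n = 3) in the diabetic pools against 11.54 ± 0.18 (SD, n = 2) in the controls, a difference of 0.54 (SE 0.43, 95% interval -0.44 to 1.52, adjusted p = 0.999 in limma). The range over the 5 pools was 1.79, and 99.5% of tested genes had a smaller one. A range of 1 log2 unit or more was seen in 1 of the 5 tested family members, against 2.30% of all tested genes.

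The size of the Gja1 difference rested on single pools. It was 1.07 (limma adjusted p = 0.492) without diabetic replicate 2 and 0.17 without diabetic replicate 3. Without both pools of high skeletal muscle signal it was 0.30, and over all alternatives it stayed positive, from 0.17 to 1.07. The difference was 0.59 with the brightest probe set not ending in x and 0.23 with all 6 probe sets averaged.

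The 6 Gja1 probe sets did not all show the same pattern. In 4 of them, those above the filter, diabetic replicates 1 and 3 were the 2 highest pools and diabetic replicate 2 the lowest. The probe set 1415800_at, which carries no x, had signals of 3314, 1235 and 3874 in diabetic and of 1641 and 1634 in control pools, a difference of 0.59 (SE 0.41). The probe sets 1438945_x_at and 1438650_x_at differed by 0.42 (SE 0.32) and 0.14 (SE 0.21). The 2 dimmer probe sets had negative differences, -0.11 for 1438973_x_at and -0.23 for 1415801_at. In 1438973_x_at control replicate 1 was the highest pool at 970.7, and in 1415801_at diabetic replicate 3 was the lowest at 60.3. Over 22087 probe sets above the filter level 0, or 0%, passed an adjusted p of 0.05, and 9 of the 15 connexin and pannexin probe sets were among those tested.

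**Figure D2:**
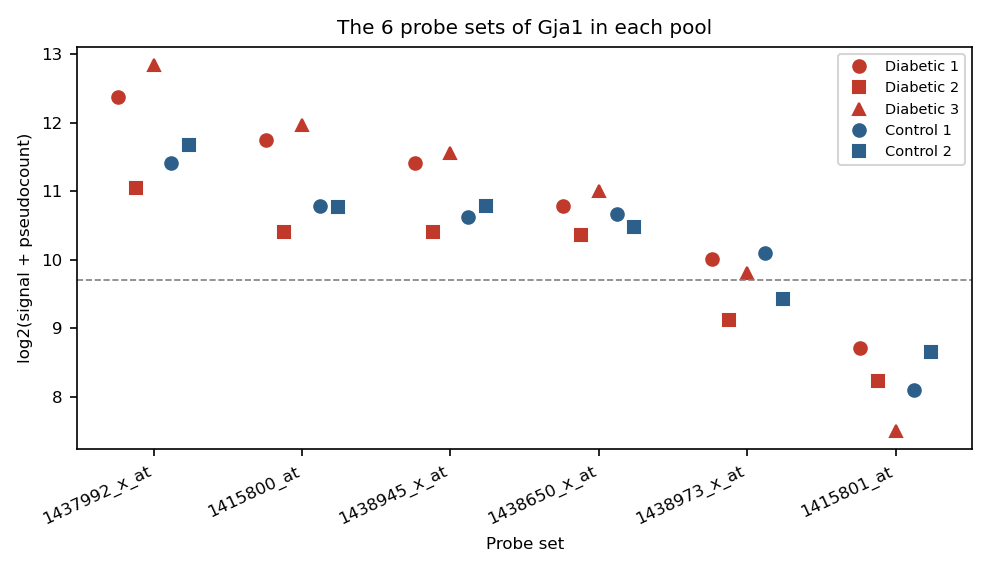
Level of the 6 Gja1 probe sets in each pool on the log2(signal + 120.6) scale, ordered by mean level, with diabetic pools in red, control pools in blue and the filter level of 9.70 dashed. In the 4 probe sets on the left, diabetic replicates 1 and 3 lie above the other 3 pools, and in the 2 below the filter they do not.

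Marker lists of the cells that carry Gja1 were set beside it. Muller glia markers, 9 of 9 tested, had summed signals of 311950, 325540 and 313370 in diabetic and of 329260 and 299180 in control pools, and were highest in control replicate 1 and diabetic replicate 2, the pools of lowest Gja1 signal. The astrocyte list without Gja1 itself had 7 genes, 6 measured and 5 tested, with summed signals of 25794, 20218 and 26497 in diabetic and of 24584 and 20595 in control pools. The sum was mostly Slc1a2, a glutamate transporter, with 20150, 14718 and 20599 in diabetic and 19163 and 14652 in control pools. The median centred level of the 5 tested genes was -0.04, -0.09 and 0.16 in diabetic and 0.00 and -0.01 in control pools, so diabetic replicate 1 lay slightly below both controls there, unlike for Gja1. The tested genes differed among themselves. S100b and Pdgfra were lowest in diabetic replicate 2 as Gja1 was, at 1588 and 1300. Aldh1l1 was highest in that pool, at 1520. So was Gfap, the intermediate filament of astrocytes, with 661.2, 930.9 and 788.6 in diabetic and 807.8 and 787.5 in control pools. Melanocyte markers, 7 measured and 4 tested, had summed signals of 23636, 3531 and 15094 in diabetic and of 5966 and 20269 in control pools. They shared the low values of diabetic replicate 2 and control replicate 1 with Gja1, but were also high in control replicate 2, where Gja1 lay in the middle of the pools. Connective tissue markers, 8 measured and 3 tested (none past the adjusted threshold, 2 at an unadjusted p under 0.05), had summed signals of 15314, 10925 and 12898 in diabetic and of 10293 and 19099 in control pools. Diabetic replicate 2 and control replicate 1 were lowest, as for Gja1, but control replicate 2 was highest. Col6a1 was the largest part of the sum, with 10029, 8871 and 7448 in diabetic and 6978 and 7172 in control pools. Dcn, also tested, had 1608, 58.9 and 1073 in diabetic and 300.4 and 2843 in control pools, and the untested Lum had the same pool order as Dcn. Col1a2, the other tested one, was lowest in diabetic replicate 2 but higher in both controls than in any diabetic pool. Pericyte and smooth muscle markers, 11 measured and 4 tested, had summed signals of 24666, 24290 and 24795 in diabetic and of 21877 and 28494 in control pools, an order unlike that of Gja1. The sum was mostly Rgs5, with 13358, 14600 and 13648 in diabetic and 12636 and 16767 in control pools. Acta2, also tested, was lowest in diabetic replicate 2 as Gja1 was, with 4951, 2054 and 3378 in diabetic and 2438 and 3621 in control pools. Pdgfrb and Abcc9, the other tested ones, were highest in diabetic replicate 2. Among the untested ones Tagln, an actin-binding protein of smooth muscle, had the pool order of Gja1, with 916.5, 120.1 and 933.9 in diabetic and 550.8 and 607.5 in control pools. Myh11, untested too, was lowest in diabetic replicate 2 at 204.9. Endothelium markers, 12 measured and 7 tested, had their highest sum, 57056, in diabetic replicate 2, where Gja1 was lowest. That sum was mostly Slc2a1, with 28506, 36260 and 31432 in diabetic and 28433 and 30499 in control pools. Kdr, also tested, had the pool order of Gja1, with 9902, 7206 and 10338 in diabetic and 8143 and 8485 in control pools. The median centred level of the 7 tested endothelium genes lay between -0.07 and 0.01 in all pools. Pigment epithelium markers, 9 measured and 8 tested, had summed signals of 93451, 110590 and 88289 in diabetic and of 134780 and 180040 in control pools. All 8 had a negative difference (median -1.18), 6 of them at an unadjusted p under 0.05 and none past the adjusted threshold. The part of these cells, and of the RNA measures of diabetic replicate 2, in the spread of Gja1 was not tested.

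**Figure D3:**
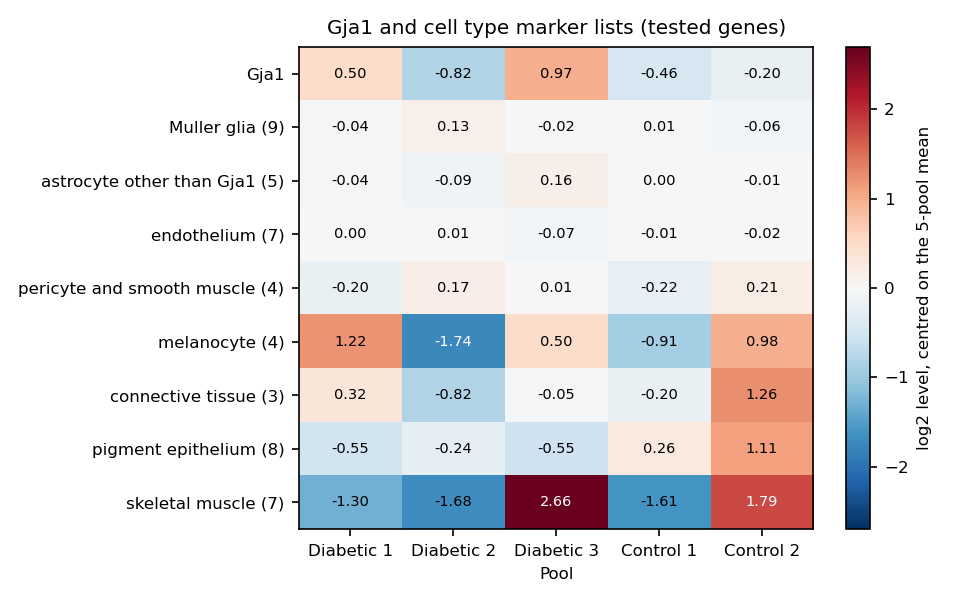
Level of Gja1 and median level of the tested genes of 8 marker lists in each pool, on the log2 scale after each gene was centred on its mean over the 5 pools, with the number of tested genes in brackets. Gja1 was at 0.50, -0.82 and 0.97 in diabetic replicates 1 to 3, while Muller glia markers stayed between -0.06 and 0.13, melanocyte markers reached 1.22 in diabetic replicate 1 and skeletal muscle markers 2.66 in diabetic replicate 3.

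Of 10514 tested genes with a regular symbol, those closest to the Gja1 profile were Gpx3, Hs3st2 and Gpnmb. Closeness was the root mean square difference of centred log2 levels over the 5 pools, at 0.30, 0.32 and 0.33. Gpx3, a secreted glutathione peroxidase, was at 11.31, 10.10 and 11.06 in diabetic and 10.22 and 10.62 in control pools. Hs3st2, a heparan sulfate sulfotransferase, was at 10.87, 10.13 and 10.94 in diabetic and 10.13 and 10.13 in control pools. Gpnmb, a glycoprotein of pigment cells and macrophages, was at 11.72, 10.31 and 11.40 in diabetic and 10.28 and 11.10 in control pools. With 5 pools such likeness describes these arrays and carries no test.

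Gja4 and Gja5 encode connexins 37 and 40, which couple the endothelial cells of arteries and arterioles. Gja4 had signals of 400.6, 218.3 and 346.5 in diabetic replicates 1 to 3 and of 444.5 and 435.1 in control replicates 1 and 2. Every diabetic pool lay below both controls, and diabetic replicate 2 was the lowest. The level was 8.77 ± 0.32 (SD, n = 3) against 9.13 ± 0.02 (SD, n = 2), a difference of -0.36, which was -0.18 without diabetic replicate 2. Without the filter on dim genes limma gave an adjusted p of 0.9997. Gja5 had signals of 15.1, 22.8 and 13.7 in diabetic and of 19.6 and 27.3 in control pools. These groups overlapped, and the difference of -0.06 carries little weight because all 5 signals lay below the pseudocount.

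The groups failed to overlap in 2 of the 8 genes, Gja4 and Panx1, both with every diabetic pool below both controls, and Panx1 was the only one of the 5 tested genes. Among all tested genes 8.15% had every diabetic pool below both controls and 9.99% every diabetic pool above both. The endothelium list, of which 7 of 12 were tested, had 5 positive and 2 negative differences (median 0.10, none past the test), with summed signals of 52207 to 57056 in diabetic and 50784 to 52435 in control pools. The arterial list, of which 5 of 10 were tested, had 3 positive and 2 negative ones (median 0.10). Over all 10 measured arterial genes 4 were positive and 6 negative (median -0.03), and for Bmx, Acvrl1 and Gja4 itself all 3 diabetic pools lay below both controls. In it Gja4 and Gja5 were themselves listed but not tested. Over all 12 measured endothelial genes 5 differences were positive and 7 negative, and in 5 every diabetic pool lay below both controls. One of the dim ones was Pecam1, at 399.9, 52.2 and 246.2 in diabetic and 434.2 and 552.9 in control pools, which was lowest in diabetic replicate 2 as Gja4 was. Emcn, also untested, was lowest there too, at 390.3. The other untested endothelial genes went otherwise. Cdh5 was highest in diabetic replicate 2, at 560.1, and Tie1 and Tek were lowest in diabetic replicate 1, at 13.9 and 560.5. The part of vessel cells and of that array in the Gja4 values was not tested.

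Panx1 encodes the widely expressed ATP release channel pannexin 1, which retinal ganglion cells, horizontal cells and glia make. Signals were 818.2, 759.7 and 852.5 in diabetic replicates 1 to 3 and 1113 and 952.0 in control replicates 1 and 2. The 3 diabetic pools lay close together and below both controls. The level was 9.86 ± 0.07 (SD, n = 3) in the diabetic pools against 10.17 ± 0.14 (SD, n = 2) in the controls, a difference of -0.31 (SE 0.18, 95% interval -0.72 to 0.11). It had the smallest unadjusted p of the 5 tested genes, 0.125, and did not pass the test over all genes (limma, adjusted p = 0.999). The difference kept its sign in all 16 alternatives, between -0.44 and -0.20. With single pools left out it was between -0.41 without control replicate 2 and -0.21 without control replicate 1, and 1 probe set is all that measured it.

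Panx2 encodes pannexin 2, a channel found mainly in neurons and glia of the central nervous system. Signals were 1421, 2332 and 1861 in diabetic replicates 1 to 3 and 1662 and 2026 in control replicates 1 and 2. Both the lowest and the highest pool were diabetic, and the control pools lay between them. Means were equal to 2 decimals, at 10.93 ± 0.34 (SD, n = 3) and 10.93 ± 0.19 (SD, n = 2), with a 95% interval of the difference from -0.47 to 0.47. That interval leaves room for a change of about that size in either direction. The range of 0.67 exceeded that of 90.5% of tested genes, and the highest signal was in diabetic replicate 2. The genes of closest profile were Mn1, Pkdcc and Sp6, with root mean square differences of 0.02, 0.03 and 0.04 on the centred log2 scale over the 5 pools.

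**Figure D4:**
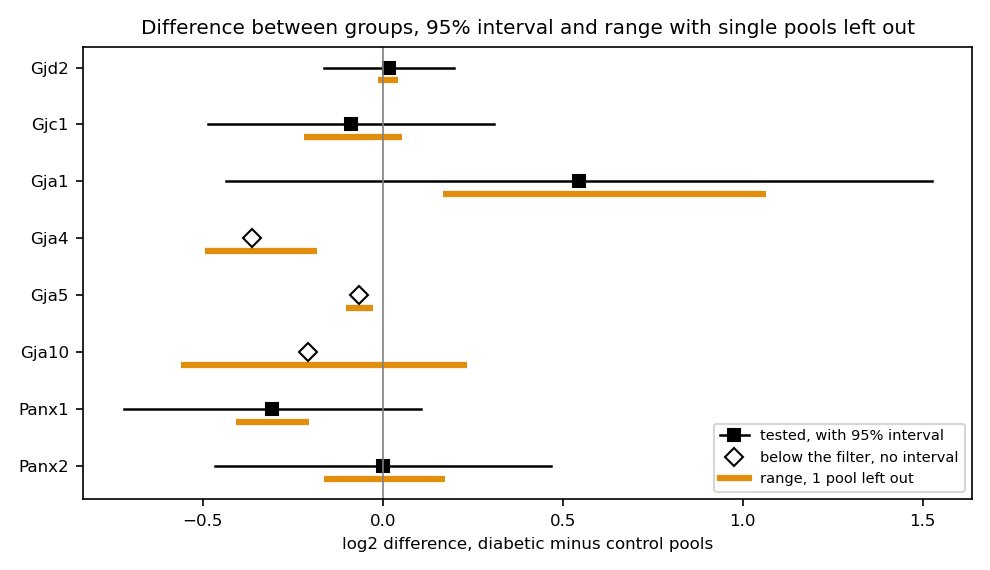
Difference between diabetic and control pools for each gene on the log2 scale, with the 95% interval from limma for the 5 tested genes (squares), no interval for the 3 below the filter (diamonds), and the range of the difference with each pool left out in turn (orange). All 5 intervals include 0, and the widest runs from -0.44 to 1.52 for Gja1.

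The other connexins of the mouse and Panx3 were dim in these retinas. Of 15 such genes 9 were measured, none passed the filter, and their signals were between 11.1 and 458.7. Gjb2 was the one that reached the highest signal, with 291.5, 268.6 and 239.1 in diabetic and 268.1 and 458.7 in control pools. Gjb6, the other astrocyte connexin, had 128.4, 160.7 and 98.9 in diabetic and 94.6 and 237.3 in control pools. Gjb1, a connexin of myelinating and liver cells, had 54.9, 55.3 and 124.7 in diabetic and 289.1 and 125.6 in control pools, so every diabetic pool lay below both controls, the nearest by less than 1 signal unit. Gje1 went the other way, with 65.8, 151.2 and 84.2 in diabetic and 20.4 and 40.01 in control pools, so every diabetic pool lay above both controls. Lens markers, which include the lens connexin Gja3, were dim too, with summed signals of 10 genes from 1108 to 2512.

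Proteins that anchor, move or remove gap junctions were followed in a list of 15 genes, 12 of them tested. None passed an adjusted p of 0.05, 2 had an unadjusted p under 0.05, and 7 differences were positive and 5 negative (median 0.02). Sgsm3, a protein that binds connexin 43 and takes part in its turnover, had signals of 1106, 902.0 and 1024 in diabetic and of 461.2 and 709.9 in control pools. Every diabetic pool lay above both controls, with a difference of 0.70 (SE 0.22, limma adjusted p = 0.999). Cdh2, the adhesion protein N-cadherin of adherens junctions, differed by 0.36 (SE 0.15), and its groups overlapped. Tjp1, the scaffold ZO-1 that binds connexin tails, had signals from 14188 to 15710 in all pools and differed by 0.0011.

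Kinases and phosphatases that act on connexins open or close the junctions, and 15 of 19 such genes were tested. Their differences were 8 positive and 7 negative (median 0.01), and none passed the test or had an unadjusted p under 0.05. The smallest unadjusted p values belonged to Csnk1e, a casein kinase 1 isoform, with a difference of 0.25 (SE 0.13), and Camk2g, a calmodulin-dependent kinase subunit, with -0.16 (SE 0.10). Dopamine, adenosine and nitric oxide set the strength of coupling between retinal neurons with the light level. Of 11 genes of that control 9 were tested, with 3 positive and 6 negative differences (median -0.06) and none past the test or under an unadjusted p of 0.05. The genes not measured were Adora1 and Adora2a, the only ones listed for adenosine, so that arm was not covered. Adcy1, an adenylate cyclase, had signals of 30855, 29662 and 30460 in diabetic and of 27984 and 27149 in control pools, with every diabetic pool above both controls and a difference of 0.14 (SE 0.07). Nos1, the neuronal nitric oxide synthase, differed by -0.32 (SE 0.28), and its groups overlapped.

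ATP released through pannexin channels acts on P2 receptors and is broken down by enzymes at the cell surface. Of 19 such genes 17 were measured and 5 tested, with 4 positive differences and 1 negative (median 0.11), and none passed the test or had an unadjusted p under 0.05. Over all 17 measured genes 10 differences were positive and 7 negative, with a median of 0.0075. P2rx4, an ATP-gated ion channel, had signals of 1121, 1464 and 1136 in diabetic and of 858.8 and 1108 in control pools, a difference of 0.30 (SE 0.19). Entpd2, an ATP-splitting enzyme, differed by 0.11 (SE 0.23). P2rx7, the receptor often paired with Panx1 in signalling, lay below the filter at 325.7, 279.7 and 311.8 in diabetic and 228.7 and 311.1 in control pools.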

How the data were processed

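The deposited values are signal intensities from the authors, 1 per probe set on a linear scale, and all 5 columns shared a trimmed mean of 2500.0 after 2% was trimmed from each end. The software that summarized the probes is not given in the sources used here. Probe sets were named from the platform annotation, with symbols updated by Entrez ID through a GRCm38.p6 gene table (34741 of 34945 matched). Signals became log2(signal + 120.6), the pseudocount being the 20th percentile of all values. Each gene took its probe set of highest mean (18193 genes), and the upper 60% (10916) were tested with limma 3.58.1 in R 4.3.3 (lmFit, and eBayes with a trend, 3 residual degrees of freedom, Benjamini-Hochberg adjustment over all tested genes), with both groups in 1 fit. Each array is 1 pool of mice, so p-values rest on the spread between pools. That spread is moderated toward the spread of genes of like level, so an SE can differ from what the SDs of the gene itself would give. The code was tested on simulated data.

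The 8 genes and all lists were chosen with earlier results of these data known, and lists carry counts and medians but no test. Named genes are the 8, the 2 of smallest p in each pathway list, and the 3 closest profiles for the 2 tested family members of widest range. Tjp1, P2rx7 and the other connexins were named after their values were seen. So was every gene named from a cell type marker list, apart from the 8, such as Lhx1, Onecut1, Gfap, Kdr, Acta2, Tagln, Myh11 and Pecam1. Alternatives covered scaling, pseudocount, filter, probe set choice, variance model, array weights, a replicate block and arrays left out. Figures were drawn with matplotlib 3.10.9.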

Additional observations from a re-analysis of the deposited data

How the results depend on the processing

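No member tested passed the adjusted threshold in any of the 19 alternatives. These tested the same 5 members as the report, except all 8 without the filter on dim genes and 2 with the upper 40% of genes, so Gja4, Gja5 and Gja10 had a test in 1 alternative only. Over all 19 alternatives the smallest adjusted p of a member was 0.492, for Gja1 without diabetic replicate 2. Over all genes the count of calls was 0 in 15 alternatives, between 0 and 1 with single pools left out, 2 with the replicate block and 2 without both pools of high skeletal muscle signal. The labels name no pairing behind the replicate numbers, and the block leaves diabetic replicate 3 without a partner. Across genes, deviations from the group mean correlated at 0.13 between pools numbered 1 and at -0.14 between pools numbered 2. Deviations of 2 control pools mirror each other, so each correlation with control replicate 2 is minus that with control replicate 1. These correlations therefore cannot decide whether pools were paired. The median of the tested members was 0.28 with the upper 40% of genes, where 2 members remained tested, and between -0.16 and 0.05 with single pools left out. Signs turned for Panx2, Gjd2 and Gjc1, whose differences were near 0, and for the untested Gja10, whose difference was -0.21. Gja10 was at 0.24 without diabetic replicate 2, 0.15 without control replicate 2 and 0.06 without both pools of high skeletal muscle signal. Panx2 was at -0.00092 with a pseudocount of 1, -0.036 with array weights, -0.0086 with the replicate block, and between -0.16 and 0.17 with single pools left out. Gjd2 was at -0.012 with the mean over probe sets and between -0.013 and 0.044 with single pools left out, and Gjc1 between -0.22 and 0.054. The cause was not tested. Gja1, Gja4, Gja5 and Panx1 kept their sign in all 16 alternatives run for them, and the Gja1 probe set without x was chosen after seeing the data. Fits that leave out a control keep 1 control pool, which is assumed to vary like the others.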
